A study of Mus musculus with 8 samples.

Results

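The regions described here were the peaks of open chromatin that lay nearest to microRNA genes in an assay of transposase-accessible chromatin (ATAC-seq) of mouse bone marrow-derived macrophages (BMDMs). A peak was a member when the authors' annotation named it for a microRNA gene or host transcript (a symbol that begins with Mir and a digit, or with Mirlet7) and placed its center no more than 100 kb from the start of that gene. The rule used names and positions, and no tag counts. It found 173 of the 9698 peaks in the wild-type (WT) table, nearest to 118 genes, and 532 of the 24867 peaks in the NCoR f/f table, nearest to 280 genes. Of the 118 genes, 95 had a single WT peak.

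The WT table held BMDMs of C57BL/6 mice under 3 conditions, each taken at 6 h: Veh (vehicle), KLA (Kdo2-lipid A, an agonist of Toll-like receptor 4, TLR4), and RGFP966 + KLA. RGFP966 is an inhibitor of the histone deacetylase HDAC3. By the study's methods, cells were serum-starved before stimulation, and RGFP966 was added when the starvation began. RGFP966 was thus present before KLA, and no condition held RGFP966 alone. Its effects before KLA and together with KLA cannot be told apart. The treatment label of the RGFP966 + KLA libraries names KLA only, and RGFP966 is in their titles. The NCoR f/f table held the Veh condition of BMDMs with floxed alleles of NCoR1 (NCoR1 flox/flox) and no Cre, so NCoR was not deleted in them. Each condition had 2 libraries, and mice were 8 to 12 weeks old by the study's methods, which grew BMDMs in cell-conditioned medium with M-CSF added later. Whether the 2 libraries came from separate mice or cultures is not stated, so the p-values measure the spread between these libraries, which may be technical. The tables differ in genotype, in the dates in their library names and in the peaks counted, so no test was made between them.

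The WT libraries held 116733 to 202523 tags in peaks, which was 1.40 to 2.06% of all their tags, and the NCoR f/f libraries held 372367 and 509741. The median WT member had 9 to 17 tags per library, so single peaks rest on few tags, and all intervals given below cover counting error only. The spread between the 2 libraries of a condition, relative to counting noise over all peaks, was 1.09 within Veh, 1.09 within KLA and 0.944 within RGFP966 + KLA, where 1 is counting noise alone. Over the members it was 1.18, 1.55 and 0.805, and without the Mir101c peaks, a repeat-rich cluster described below, 0.977, 0.918 and 0.801. Macrophage loci had peaks in both tables: 3 of 8 listed genes in the WT table (Csf1r, Itgam and Cebpa) and 8 of 8 in the NCoR f/f table. Of 6 loci of other cell types, 0 had a WT peak and 1 (Pecam1) had an NCoR f/f peak.

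MicroRNAs are cut from a hairpin in a longer primary transcript, and the mature strand pairs with messenger RNAs mainly through its seed, the bases from position 2 to 8, which lowers the output of the matched messages. In macrophages, TLR4 signaling through NFkB is known to raise primary transcripts of miR-155, which promotes inflammatory output, and of miR-146a, which restrains TLR4 signaling by targeting its adaptors. An accessible region near such a gene can be a promoter or an enhancer, but the nearest gene is a matter of position, and accessibility is not a measure of the mature microRNA.

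The mature strands of the microRNAs that the results turn on are shown with the seed in capitals, 5′ to 3′. RefSeq's table for GRCm38.p6 held a mature strand for all but 17 of the 118 WT genes and all but 36 of the 280 NCoR f/f genes. Strands of 3 TLR4-responsive genes with peaks are given, then the let-7 and miR-181 strands, which share a seed within each family, then those of a called loss and of the Mir101c locus.
miR-155-5p: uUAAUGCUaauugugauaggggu
miR-146a-5p: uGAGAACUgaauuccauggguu
miR-21a-5p: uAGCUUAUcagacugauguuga
let-7a-5p: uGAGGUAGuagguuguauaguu
let-7c-5p: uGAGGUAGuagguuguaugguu
let-7i-5p: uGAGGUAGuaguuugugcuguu
miR-181a-5p: aACAUUCAacgcugucggugagu
miR-181b-5p: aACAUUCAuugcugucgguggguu
miR-148a-3p: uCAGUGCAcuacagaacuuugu
miR-101c: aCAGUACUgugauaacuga

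The seed GAGGUAG was common to the let-7 strands of 3 genes with WT peaks (Mirlet7a-1, Mirlet7c-1 and Mirlet7i), and ACAUUCA to those of Mir181a-1 and Mir181b-1. The other shared seeds among WT members were AGCUUAU (Mir21a and Mir21c), ACUGGCC (Mir193a and Mir193b), ACUCUGC (Mir7094-1 and Mir7094-2), UCAAGUA (Mir26a-1 and Mir26b) and AGGAGAG (Mir7012 and Mir7057).

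Peak sequences are shown for the peaks that the main comparisons turn on, read from the plus strand of GRCm38.p6 (mm10). Capitals mark consensus matches in the printed sequence. The motifs searched on both strands were AP-1 (TGACTCA), PU.1 (GAGGAAGT), C/EBP (TTGCNNAA) and the NFkB-p65 consensus. The Mir146 peak, a called gain with KLA, and the Mir155hg promoter peak held no match to these letters. The Mir670 and Mir181b-1 peaks are shown as examples that held an AP-1 and an NFkB-p65 match. Other members, such as Mir6339 and Mirlet7c-1, held both as well. The Mir181b-1 peak also held a PU.1 match, on the minus strand.
Mir146, chr11:43369234-43369467: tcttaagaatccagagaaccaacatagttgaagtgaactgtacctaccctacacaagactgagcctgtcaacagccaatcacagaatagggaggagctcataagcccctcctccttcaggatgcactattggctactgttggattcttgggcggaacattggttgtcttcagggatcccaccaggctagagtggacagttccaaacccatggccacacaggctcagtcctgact
Mir155hg, chr16:84713094-84713316: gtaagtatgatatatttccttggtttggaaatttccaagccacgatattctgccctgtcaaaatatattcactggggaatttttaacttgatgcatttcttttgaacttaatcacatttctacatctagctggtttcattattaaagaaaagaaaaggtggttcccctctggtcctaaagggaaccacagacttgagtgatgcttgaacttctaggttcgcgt
Mir670, chr2:94288219-94288456: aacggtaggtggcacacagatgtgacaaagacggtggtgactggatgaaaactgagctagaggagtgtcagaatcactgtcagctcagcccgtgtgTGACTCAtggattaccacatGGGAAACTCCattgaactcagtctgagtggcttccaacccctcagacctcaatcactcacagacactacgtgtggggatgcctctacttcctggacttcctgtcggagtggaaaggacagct
Mir181b-1, chr1:138039202-138039407: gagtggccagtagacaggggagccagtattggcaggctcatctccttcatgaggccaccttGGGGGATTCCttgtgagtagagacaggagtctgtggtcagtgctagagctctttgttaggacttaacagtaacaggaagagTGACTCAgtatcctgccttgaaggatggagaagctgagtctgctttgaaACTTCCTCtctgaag

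The comparison of KLA with Veh asks which regions open or close after TLR4 activation. With KLA, 8 of the 173 WT members rose and 2 fell, at an edgeR adjusted p under 0.05 and over 2-fold. This was 4.62% and 1.16% of the members, against 3.3% and 1.73% of all 9698 peaks, so the shares lay near the background. At an unadjusted p under 0.05, 26 members were higher and 11 lower, against 11.2% and 8.28% of all peaks. DESeq2 with its own size factors called 0 members and 0 peaks in all at an adjusted p under 0.05, with 11 members and 570 peaks at an unadjusted p under 0.05. The gains lay between 3.35-fold and 10.95-fold in normalized tags, from 0 to 5 tags per Veh library to 7 to 22 tags per KLA library. The median log2 fold change was 0.05 over the members and 0.02 over all peaks.

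The Mir146 peak 5111 bp from the gene's start was the called gain among the TLR4-responsive microRNA genes. It held 0 and 2 tags in the Veh libraries, 11 and 9 with KLA, and 8 and 4 with RGFP966 + KLA. Both KLA libraries stood above both Veh libraries, with a log2 fold change of 2.92 ± 0.72 (SE) and an edgeR adjusted p of 0.0103. The ratio of summed tags, scaled to tags in peaks, was 8.23 with an exact 95% interval of 2.00 to 72.6. The call was lost without the Veh library 1 or the KLA library 2, with adjusted p-values up to 0.24. The other Mir146 peak, at -10925 bp, held 17 and 17 tags with Veh, 19 and 12 with KLA, and 23 and 14 with RGFP966 + KLA, and its log2 fold change with KLA was -0.41 ± 0.35 (edgeR adjusted p = 0.582).

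The Mir155hg promoter peak, 182 bp from the start of the miR-155 host transcript, held 2 and 0 tags with Veh, 9 and 6 with KLA, and 3 and 5 with RGFP966 + KLA. The KLA libraries stood above the Veh libraries, and the log2 fold change of 2.51 ± 0.71 missed the threshold (edgeR adjusted p = 0.0545). It was just past it with a replicate block, with 2.52 ± 0.81 and an edgeR adjusted p of 0.0494, although the library numbers were not taken as pairs. The ratio of summed tags was 6.17, with an interval of 1.44 to 55.6. The second Mir155hg peak, at -4245 bp, held 1 and 3 tags with Veh, 11 and 8 with KLA, and 5 and 5 with RGFP966 + KLA. Its log2 fold change with KLA was 1.92 ± 0.60 (edgeR adjusted p = 0.0714), and again the KLA libraries were the highest.

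The Mir147 peak, 24743 bp from the start of a gene whose microRNA is induced by TLR ligands in macrophages, held 2 and 3 tags with Veh, 11 and 11 with KLA, and 16 and 14 with RGFP966 + KLA. All treated libraries stood above the Veh libraries. The log2 fold change was 1.82 ± 0.61 with KLA (edgeR adjusted p = 0.0645) and 1.88 ± 0.57 with RGFP966 + KLA (edgeR adjusted p = 0.0267), so the latter was called. Without any single library of Veh or of RGFP966 + KLA, the Mir147 call was lost, with adjusted p-values up to 0.211.

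The remaining peaks of the TLR4-responsive list lay at Mir21a and Mir99b. The Mir21a peak 5137 bp from the start held 14 and 10 tags with Veh, 6 and 10 with KLA, and 8 and 8 with RGFP966 + KLA, and the Veh and KLA libraries met at 10 tags in raw counts. The Mir21a peak at -2963 bp, in an intron of the protein-coding gene Vmp1, held 13 and 3 tags with Veh, 8 and 7 with KLA, and 15 and 16 with RGFP966 + KLA. The Mir99b peak, at -3200 bp from a cluster that also encodes let-7e and miR-125a, held 13, 12, 14, 11, 11 and 10 tags in the same library order, a range narrower than that of depth. None of these 3 peaks passed the threshold in any of the 3 comparisons. Scaled to tags in peaks, the Mir99b peak was lower with RGFP966 + KLA than with Veh (-0.91 ± 0.41, edgeR adjusted p = 0.151). So was the Mir21a peak at 5137 bp (-1.23 ± 0.45, edgeR adjusted p = 0.0689). At an unadjusted p under 0.05 in edgeR, 2 peaks of the list were lower and 2 higher in that comparison, against 10.2% and 15.3% of all peaks. With loess offsets, a scaling of each library along peak abundance, the Mir21a peak at 5137 bp was called lower in RGFP966 + KLA than in Veh (-1.41 ± 0.45, edgeR adjusted p = 0.0415).

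Over the list of 20 TLR4-responsive genes, 5 genes had 8 WT peaks. With KLA, 1 of the 8 rose and 0 fell, against 3.3% and 1.73% of all peaks. At an unadjusted p under 0.05 in edgeR, 4 were higher and 0 lower, against 11.2% and 8.28% of all peaks. The 4 were the Mir146 peak at 5111 bp, both neighboring Mir155hg peaks and the Mir147 peak. The list's median log2 fold change was 0.77, against 0.02 over all peaks, with 4 values above 0 and 4 below. The list and the members were chosen with results of these data known, so the count is a description.

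**Figure D1:**
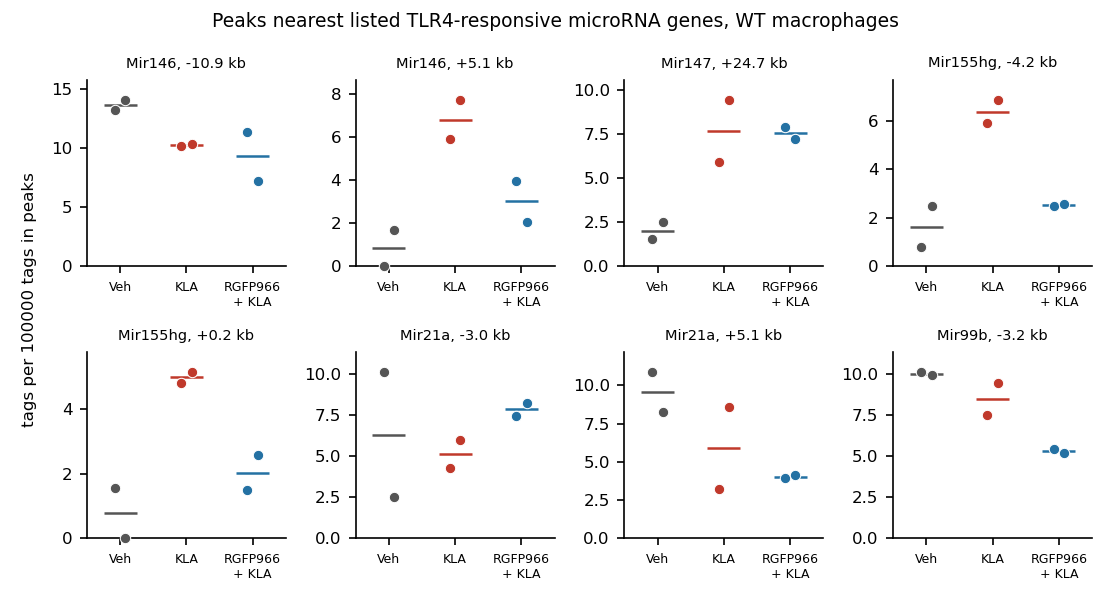
Tags per 100000 tags in peaks (y axis, each panel with its own scale, from 0) of the 8 WT peaks nearest listed TLR4-responsive microRNA genes, with 1 point per library and a line at the mean of the 2 libraries of Veh, KLA and RGFP966 + KLA. The Mir146 peak at 5111 bp and both Mir155hg peaks are highest in the KLA libraries, the Mir147 peak is high in all 4 treated libraries, and the Mir21a, Mir99b and second Mir146 peaks overlap or sit below Veh.

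Of the gains with KLA outside this list, the one with the smallest p was a Mir7666 peak, 554 bp from the gene's start and in the promoter of Micu3, which encodes a regulator of mitochondrial calcium uptake. It held 0 and 2 tags with Veh, 18 and 11 with KLA, and 24 and 14 with RGFP966 + KLA. All 4 treated libraries stood above Veh, with log2 fold changes of 3.45 ± 0.73 for KLA (edgeR adjusted p = 0.00254) and 3.46 ± 0.70 for RGFP966 + KLA (edgeR adjusted p = 0.00101). Both calls were lost without the Veh library 1, with adjusted p-values of 0.0872 and 0.0542. A second Mir7666 peak, at -30 bp, held 16, 7, 12, 12, 16 and 16 tags, and its groups overlapped in every comparison, so the gain was measured in 1 of the 2 neighboring peaks.

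The Mir7094-2 peak, at -49025 bp, held 5 and 3 tags with Veh, 22 and 14 with KLA, and 32 and 23 with RGFP966 + KLA. Its gain of 2.09 ± 0.45 on the log2 scale with RGFP966 + KLA (edgeR adjusted p = 0.00176) was kept in 6 of 6 fits with a library left out, the only called change of which this was true. With KLA alone the gain was 1.86 ± 0.49 (edgeR adjusted p = 0.0145), and that call was lost without either Veh library or the KLA library 1, with adjusted p-values up to 0.135.

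The other gains with KLA were at Mir670, Mir7674, Mir1931, Mir3095 and Mir6353. The Mir670 peak, at -26938 bp and the one printed with an AP-1 and an NFkB-p65 match, held 2 and 2 tags with Veh, 15 and 9 with KLA, and 10 and 9 with RGFP966 + KLA (log2 fold change with KLA 2.25 ± 0.60, edgeR adjusted p = 0.0175). The Mir7674 peak, in an intron of the nucleoporin gene Nup214, held 2 and 2, then 17 and 7, then 7 and 6 tags. The Mir1931 peak, in an intron of the kinase gene Cdk17, held 2 and 3, then 15 and 11, then 6 and 8 tags. In these 3 peaks the KLA group stood above Veh, and the means with RGFP966 + KLA lay between the means of the others. The Mir3095 peak held 1 and 5, then 17 and 10, then 12 and 13 tags, and the Mir6353 peak, in an intron of Pid1, held 3 and 4, then 16 and 13, then 21 and 17. Without the Veh library 1 or 2 or the KLA library 1, the Mir670 and Mir7674 calls were lost, with adjusted p-values up to 0.150 and 0.265, and the Mir1931 call was lost without any single library of Veh or KLA, with values up to 0.208. The Mir3095 call was kept in 1 of 6 such fits, without the Veh library 2, where its log2 fold change of 1.86 became 3.40, and without the Veh library 1 it was 1.09 (edgeR adjusted p = 0.416). The Mir6353 call with KLA was lost in each of the 6 fits with a library left out, with adjusted p-values from 0.0509.

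The losses with KLA were at Mir7041 and Mir148a. The Mir7041 peak, 1712 bp from the start and at the end of Slc25a26, a mitochondrial carrier gene, held 11 and 13 tags with Veh, 3 and 2 with KLA, and 9 and 9 with RGFP966 + KLA. It fell by 2.49 ± 0.56 on the log2 scale with KLA (edgeR adjusted p = 0.00413), a call lost without the Veh library 2 or the KLA library 1, with adjusted p-values up to 0.0897. The Mir148a peak, 91419 bp from the start, held 20 and 32 tags with Veh, 21 and 7 with KLA, and 17 and 14 with RGFP966 + KLA. It fell by 1.17 ± 0.34 with KLA (edgeR adjusted p = 0.0298) and by 1.40 ± 0.33 with RGFP966 + KLA (edgeR adjusted p = 0.00365), and once scaled to depth both treated groups lay below Veh. The Mir148a call with KLA was lost without the library 2 of Veh, of KLA or of RGFP966 + KLA, with values from -0.75 to -1.78 over the 6 fits and adjusted p-values up to 0.397, and that with RGFP966 + KLA without the library 2 of either group, with values up to 0.165. In libraries of bulk cells, fewer cells with an open region and less open chromatin per cell cannot be told apart.

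The comparison of RGFP966 + KLA with KLA asks what inhibition of HDAC3, begun before KLA, changes in cells given KLA. No member passed the threshold: 0 rose and 0 fell, against 0.237% and 0.103% of all peaks. At an unadjusted p under 0.05 in edgeR, 13 members were higher and 11 lower, against 7.92% and 5.93% of all peaks, and DESeq2 had 0 members and 144 peaks at that level. The median log2 fold change of the members was 0.00, and that of all peaks was 0.03.

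Among the TLR4-responsive peaks, 3 of 8 were lower with RGFP966 + KLA than with KLA at an unadjusted p under 0.05 in edgeR. At that level 0 were higher. Over all peaks the shares were 5.93% lower and 7.92% higher. The first was the Mir146 peak at 5111 bp, with a log2 fold change of -1.10 ± 0.46 (edgeR adjusted p = 0.302). The others were the Mir155hg peaks at 182 bp (-1.26 ± 0.51, edgeR adjusted p = 0.317) and at -4245 bp (-1.28 ± 0.47, edgeR adjusted p = 0.243). In each of them both RGFP966 + KLA libraries lay below both KLA libraries per tags in peaks. Such a lack of overlap, in either direction, was common, with 82 of the 173 members in this comparison. It was found at 68 members for KLA against Veh and at 105 for RGFP966 + KLA against Veh. The share over all peaks was not counted, so a lack of overlap gives no separate evidence of a change at a peak. The Mir147 peak, with 11 and 11 against 16 and 14 tags, had a log2 fold change of 0.06 ± 0.39 (edgeR adjusted p = 0.967). The list's median was -0.50, with 2 values above 0 and 6 below.

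These 3 peaks crossed the threshold under another scaling. With loess offsets, which fit the scale of each library along peak abundance, 5 members were lower with RGFP966 + KLA and 0 higher: the Mir146 peak (log2 fold change -1.97 ± 0.47, edgeR adjusted p = 0.0262), both Mir155hg peaks (-2.37 ± 0.52, adjusted p = 0.0210, and -2.04 ± 0.48, adjusted p = 0.0266), Mir7674 (-1.83 ± 0.44, adjusted p = 0.0264) and Mir1931 (-1.69 ± 0.43, adjusted p = 0.0349). Under the same offsets the KLA against Veh difference of the Mir146 peak was 2.21 ± 0.79 and missed the threshold (edgeR adjusted p = 0.107), as did those of Mir7674 (1.72 ± 0.62, adjusted p = 0.116) and Mir1931 (1.65 ± 0.58, adjusted p = 0.0937). For RGFP966 + KLA against Veh, none of them called, the offsets turned the sign of the Mir155hg peaks (1.25 to -0.75 and 0.63 to -0.78), Mir7674 (1.00 to -0.11) and Mir1931 (0.80 to -0.04). The offsets also moved the split of all called peaks from 23 gained and 10 lost to 21 gained and 64 lost, so the direction of the calls depended on the scaling. With DESeq2 the Mir146 difference was -1.19 ± 0.93 and those of Mir155hg were -1.32 ± 1.08 and -1.36 ± 0.93, each with an adjusted p of 1.00.

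The members with the smallest p for RGFP966 + KLA above KLA were Mir6347, Mir669c and Mir7042. The Mir6347 peak, at -1281 bp, held 3 and 3 tags with Veh, 7 and 1 with KLA, and 21 and 13 with RGFP966 + KLA (log2 fold change against KLA 1.67 ± 0.49, edgeR adjusted p = 0.105). The Mir669c peak, in an intron of Cep128, held 3 and 2, then 5 and 1, then 13 and 15 tags, and the Mir7042 peak held 3 and 5, then 5 and 3, then 14 and 16. In these 3 peaks the Veh and KLA libraries overlapped and both RGFP966 + KLA libraries were the highest. In the other direction, the Mir7013 peak, in an intron of the lipid kinase gene Pi4kb, held 3 and 8, then 14 and 17, then 5 and 11 tags (-1.32 ± 0.44, edgeR adjusted p = 0.147), followed by Mir1931 and Mir7674, described above.

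Against Veh, RGFP966 + KLA had 18 members that rose and 4 that fell, which was 10.4% and 2.31% of the members, against 6.89% and 2.99% of all peaks. At an unadjusted p under 0.05 there were 33 higher and 15 lower, against 15.3% and 10.2% of all peaks. DESeq2 called 0 of the members and 0 peaks in all, with 17 members and 742 peaks at an unadjusted p under 0.05. This comparison uses the same Veh libraries as KLA against Veh, so its calls are not independent of those above. Of the 18 gains, 13 were also higher with KLA at an unadjusted p under 0.05, and 12 stood on the reproducible (IDR) peak list of RGFP966 + KLA alone. Peaks entered the table through these lists, which were made from the same libraries. All 4 losses were on the list of Veh alone.

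Together, 28 members passed the threshold in either comparison with Veh, each nearest a different gene, of which 23 rose and 5 fell. Only 4 passed in both: Mir7666, Mir7094-2, Mir148a and Mir6353. Of the 28, 6 lay within 2 kb of the microRNA gene's start and 18 over 10 kb away, 14 overlapped a protein-coding gene, and 3 belonged to the fixed lists (Mir146, Mir147 and Mir181b-1). Gains with RGFP966 + KLA ran from 2.48-fold to 10.99-fold.

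The highest levels among the gains with RGFP966 + KLA were at Mir491, 92058 bp from the start and in an intron of Focad. It held 11 and 13 tags with Veh, 34 and 19 with KLA, and 47 and 48 with RGFP966 + KLA, so that the 3 groups did not overlap (log2 fold change 1.31 ± 0.31 against Veh, edgeR adjusted p = 0.00379). The Mir466f-3 peak held 4 and 5, then 15 and 10, then 29 and 24 tags, also without overlap (1.87 ± 0.44, edgeR adjusted p = 0.00321). The Mir5129 peak, which lay 1580 bp from the transcription factor gene Zeb2, held 2 and 2, then 11 and 4, then 27 and 11 tags (2.52 ± 0.60, edgeR adjusted p = 0.00411). The Mir491 and Mir466f-3 calls were lost without the Veh library 1, with adjusted p-values of 0.0816 and 0.0747, and the Mir5129 call without the Veh library 1 or the RGFP966 + KLA library 1, with values up to 0.178.

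Gains near starts of microRNA genes were at Mir6361, Mir6347 and Mir3072, beside Mir7666. The Mir6361 peak, 29 bp from the start, held 1 and 2 tags with Veh, 11 and 4 with KLA, and 13 and 15 with RGFP966 + KLA (2.48 ± 0.64, edgeR adjusted p = 0.00773), and its ratio of summed tags to Veh was 5.88 with an interval of 1.82 to 30.2. The Mir3072 peak, in the imprinted Mirg cluster, held 1 and 4, then 12 and 5, then 14 and 17 tags. Farther gains were at Mir3962 (3 and 1, 11 and 7, 13 and 22 tags), Mir7056 (3 and 1, 10 and 7, 13 and 21), Mir6339 (3 and 2, 12 and 7, 19 and 15), Mir7009 (5 and 4, 15 and 10, 23 and 20), Mir331 (2 and 4, 8 and 2, 19 and 13) and Mir7661 (2 and 6, 10 and 11, 18 and 19). In each of these, both RGFP966 + KLA libraries stood above both Veh libraries. Every call in this paragraph except that of Mir7666, given above, was lost without at least 1 Veh and at least 1 RGFP966 + KLA library, with the highest adjusted p-values between 0.103 (Mir6339) and 0.402 (Mir7661).

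Mir181b-1 was the called peak of the myeloid list. This peak, 72665 bp from the start and 23452 bp from Ptprc, which encodes the leukocyte phosphatase CD45, held 1 and 7 tags with Veh, 16 and 3 with KLA, and 22 and 17 with RGFP966 + KLA. The Veh and KLA libraries overlapped and the RGFP966 + KLA libraries stood above both (1.60 ± 0.53 against Veh, edgeR adjusted p = 0.0406). The call was lost without Veh library 1, or without either RGFP966 + KLA library, with adjusted p-values up to 0.482.

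The losses with RGFP966 + KLA, beside Mir148a, were at Mir193a, Mir1938 and Mir6979. The Mir193a peak, at -7388 bp, held 10 and 9 tags with Veh, 7 and 2 with KLA, and 4 and 2 with RGFP966 + KLA, and fell by 2.27 ± 0.53 on the log2 scale (edgeR adjusted p = 0.00509). The Mir1938 peak, 50 bp from the start and inside the Ifrd1 gene, held 10 and 17, then 6 and 6, then 9 and 5 tags, and fell by 1.59 ± 0.45 (edgeR adjusted p = 0.0150). The Mir6979 peak, in an intron of the formin gene Diaph1, held 12 and 14, then 8 and 5, then 12 and 5 tags (-1.26 ± 0.43, edgeR adjusted p = 0.0495), just past the threshold. Each of these 3 calls was lost without the RGFP966 + KLA library 2 and without at least 1 Veh library, with adjusted p-values up to 0.102, 0.280 and 0.356.

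**Figure D2:**
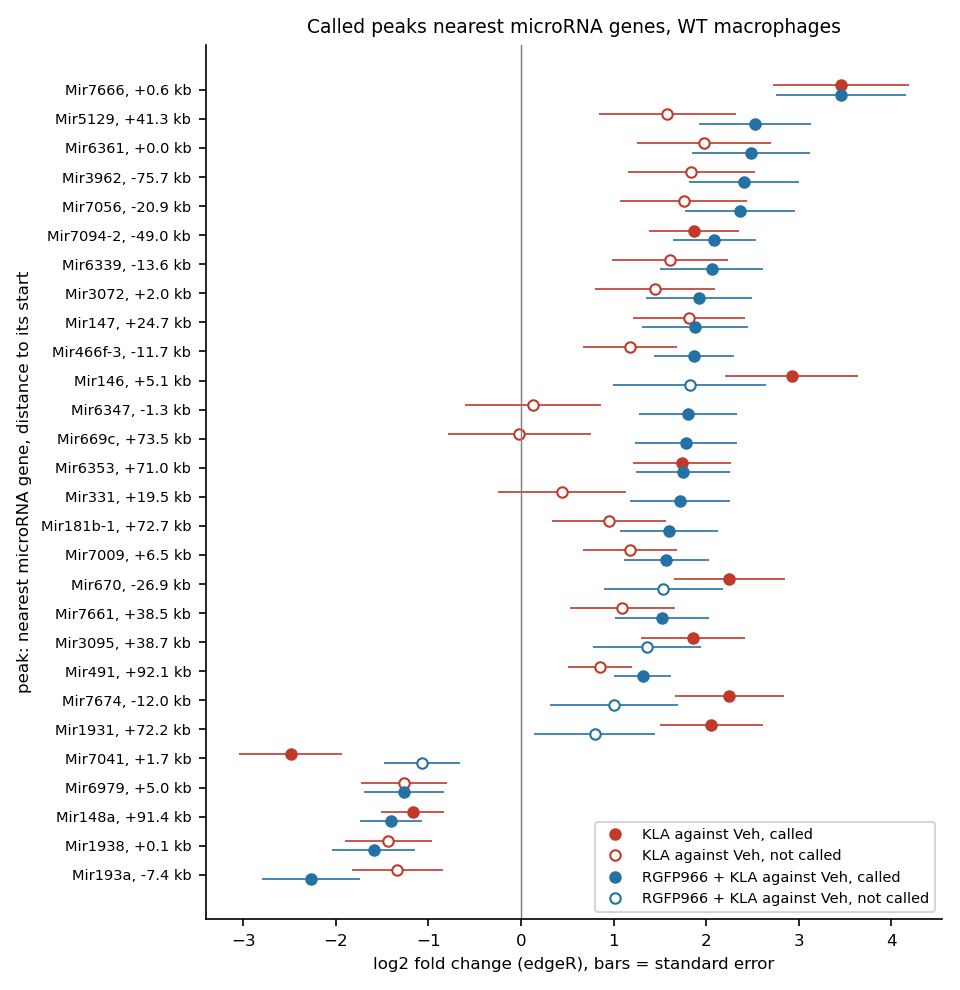
Log2 fold change of each of the 28 called WT peaks (x axis, edgeR, with standard errors as bars) against Veh, in red for KLA and in blue for RGFP966 + KLA; filled points passed the threshold and open points did not. The 23 gains lie right of 0 and the 5 losses left of it in both comparisons, except Mir669c, whose KLA value of -0.02 lies at 0; both comparisons use the same Veh libraries.

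Of 21 listed genes of myeloid identity, 7 genes had 13 WT peaks, of which 0 passed with KLA, against 3.3% gained and 1.73% lost over all peaks (0 also at an unadjusted p under 0.05 in edgeR, and 0 called by DESeq2). Their median log2 fold change was 0.02, the same as over all peaks. Mir142, which encodes a microRNA abundant in blood cells, had peaks at -7213 bp (13, 6, 15, 11, 19 and 15 tags) and -1409 bp (11, 8, 7, 6, 18 and 10 tags). Per tags in peaks, the Veh and KLA libraries overlapped at the first, and at the second both KLA libraries lay below Veh (log2 fold change -0.82 ± 0.50, edgeR adjusted p = 0.385). The Mir22hg promoter peak held 30, 17, 26, 15, 27 and 16 tags, where the second library of each pair was the lower. Per tags in peaks, all treated libraries lay below both Veh libraries at this peak. Its log2 fold change for RGFP966 + KLA against Veh was -0.79, which was not called.

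Mir23a, whose cluster encodes miR-23a, miR-27a and miR-24, had 5 WT peaks between -10017 and -559 bp. The peak at -10017 bp was the highest of them, with 14, 14, 26, 12, 21 and 18 tags, and the peak at -559 bp held 9, 4, 6, 10, 16 and 13. The Mir17 cluster, known for microRNAs that support proliferation, had peaks at -2797 bp (10, 14, 12, 12, 15 and 17 tags) and -1448 bp (13, 5, 15, 8, 15 and 18). The Mir181a-1 peak held 11, 14, 20, 9, 27 and 21 tags and the Mir29b-1 peak 6, 8, 8, 6, 14 and 9. None of these 9 peaks passed the threshold in any comparison.

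The let-7 family had 4 WT peaks at 3 genes, with 0 calls in the 3 comparisons (1 at an unadjusted p under 0.05 in edgeR with KLA, 0 called by DESeq2). The Mirlet7a-1 peak at -8335 bp had the highest mean level of all members outside the Mir101c locus, with 27 and 19 tags under Veh, 59 and 28 under KLA, and 42 and 44 with the inhibitor added. Both KLA libraries lay above both Veh libraries, with a log2 fold change of 0.63 ± 0.28 (edgeR adjusted p = 0.194). A neighboring Mirlet7a-1 peak at -7689 bp held 7, 13, 17, 10, 13 and 16 tags, the Mirlet7c-1 peak 16, 5, 15, 13, 19 and 26, and the Mirlet7i peak, in an intron of Ppm1h, 13, 11, 16, 10, 17 and 16.

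Among microRNA genes linked to metabolism, Mir210 and Mir378a had 1 peak each. Mir210, known for its induction in hypoxia, had a promoter peak with 21, 24, 24, 18, 31 and 28 tags. Per tags in peaks, all treated libraries lay below both Veh libraries at the Mir210 peak. Its log2 fold changes against Veh were -0.38 with KLA and -0.27 with RGFP966 + KLA, neither of them called. The Mir378a peak lay in an intron of its host Ppargc1b, which encodes PGC1β, a coactivator that the study follows in complex with NCoR and HDAC3, and held 7, 14, 16, 10, 14 and 19 tags. Its log2 fold change was 0.03 ± 0.42 with KLA and -0.04 ± 0.38 for RGFP966 + KLA against KLA (edgeR adjusted p = 0.982 and 0.975).

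**Figure D3:**
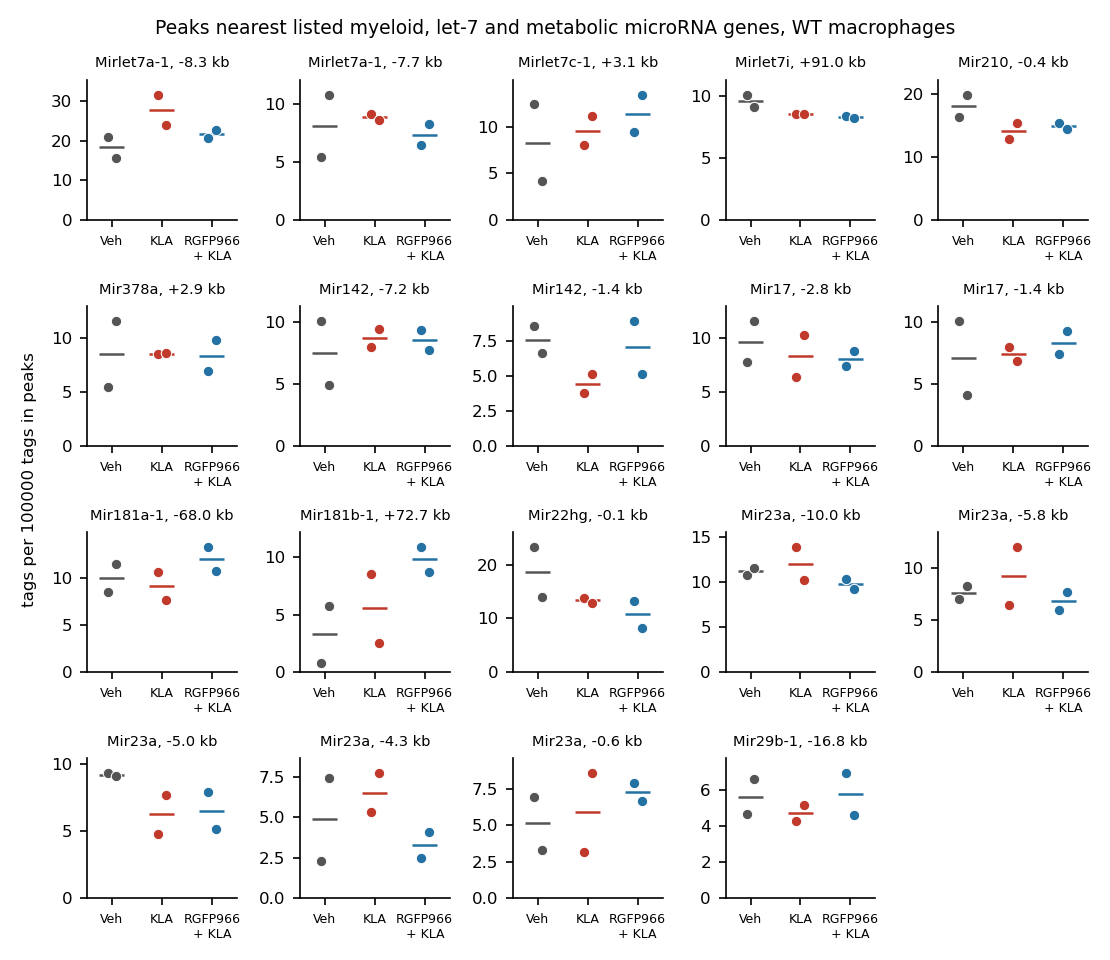
Tags per 100000 tags in peaks (y axis, each panel with its own scale, from 0) of the 19 WT peaks nearest listed myeloid, let-7 and metabolic microRNA genes, with 1 point per library and a line at the mean of the 2 libraries. Of these peaks only that of Mir181b-1 passed the threshold, with RGFP966 + KLA against Veh. The KLA and Veh libraries do not overlap at 3 of 13 myeloid, 2 of 4 let-7 and 1 of 2 metabolic peaks. For RGFP966 + KLA the counts are 4, 3 and 0 against KLA, and 4, 1 and 1 against Veh. The share over all peaks was not counted.

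Peaks within 2 kb of a microRNA gene's start numbered 28 in the WT table, near 26 genes. With KLA, 1 of them rose and 1 fell, and with RGFP966 + KLA against Veh 4 rose and 1 fell, out of the calls described above. Over all peaks these shares were 3.3% and 1.73%, and 6.89% and 2.99%, and counts this small were not set apart from them. Of the 28, 8 also lay within 2 kb of a listed start of a protein-coding gene, and 15 overlapped such a gene. These cannot be assigned to the microRNA by position. The 8 are a lower bound, because the starts used lacked chromosome 18 and Micu3. Thus the Mir6361 peak and the Mir7666 peak in the Micu3 promoter were not among the 8. Examples that passed no threshold were the Mir7671 peak near Irf1, which encodes an interferon regulatory factor (25, 18, 44, 19, 29 and 36 tags), the Mir8114 peak in the gene of glutamine synthetase, Glul (17, 15, 30, 16, 22 and 22), and the Mir8112 peak in the Krcc1 promoter (18, 23, 21, 10, 22 and 19).

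Beside those described with the lists or as neighbors of a called peak, the peaks within 2 kb that passed no threshold were at Mir1938 (415 bp), Mir7071, Mir1956, Mir8096, Mir7654, Mir5133, Mir1945, Mir5103, Mir6905, Mir6904 and Mir3092. Their libraries held between 1 and 22 tags. The Mir3092 peak, in the gene Fndc3b, held 3, 2, 5, 1, 10 and 12 tags, and its groups did not overlap between KLA and RGFP966 + KLA (log2 fold change 1.45 ± 0.53, edgeR adjusted p = 0.240).

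The 5 members with the highest mean level were all named for Mir101c, as were 27 of the 173 WT members. These peaks lay between positions 2999958 and 3038299 of chromosome 9, at its first assembled bases, and their nearest protein-coding gene, Alkbh8, lay at least 296932 bp away. All 27 had over 50% of their bases masked as repeats, with a median of 95.1%, against 2.62% for the other WT members and 3.42% for all peaks. Over all peaks, 143 of 9527 passed that level. An exact match to the middle 50 bases recurred elsewhere in the assembly for 1 of the 27, and for 4 of the other 146 members. The sequence of the peak nearest the gene, 546 bp from its start, is shown because it held none of the motifs.
Mir101c, chr9:3038096-3038299: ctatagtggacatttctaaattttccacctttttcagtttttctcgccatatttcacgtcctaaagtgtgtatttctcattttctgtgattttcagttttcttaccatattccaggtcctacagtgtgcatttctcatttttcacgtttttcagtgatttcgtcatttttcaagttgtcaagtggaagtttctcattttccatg

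The Mir101c peaks held 985 and 1193 tags with Veh, 1271 and 1214 with KLA, and 1336 and 1399 with RGFP966 + KLA. The highest library had 1.42 times the tags of the lowest, while tags in peaks differed 1.73 times and all tags 1.76 times between libraries. As a share of tags in peaks they made 0.764 and 0.985% with Veh, 0.680 and 1.04% with KLA, and 0.660 and 0.720% with RGFP966 + KLA, and the highest shares fell in the libraries with the fewest tags in peaks. None of the 27 passed the threshold (0 at an unadjusted p under 0.05 with KLA in edgeR, 1 lower in each comparison of RGFP966 + KLA, and 0 called by DESeq2). The part of mapping to repeats in these counts was not tested.

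**Figure D4:**
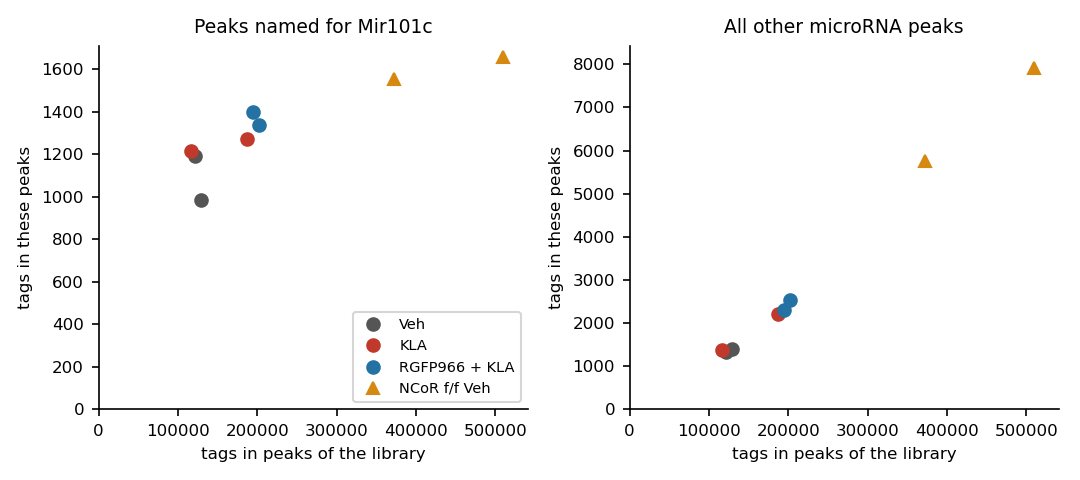
Tags summed over the peaks named for Mir101c (left) and over all other microRNA peaks (right) against the tags in peaks of each library, for 6 WT libraries (circles) and 2 NCoR f/f libraries (triangles, another peak set), with axes from 0. On the right the tags grow with depth, from 1327 to 2523 in WT, and on the left they span only 985 to 1399.

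All members together held 1.85 and 2.08% of the tags in peaks with Veh, 1.86 and 2.21% with KLA, and 1.91 and 1.91% with RGFP966 + KLA, so that the conditions overlapped. Without the Mir101c peaks the shares were 1.09 and 1.10%, 1.18 and 1.17%, and 1.25 and 1.19%. The Veh libraries were then the lowest and did not overlap the treated libraries. The Wilson intervals of the Veh libraries ran from 1.03 to 1.16% and those of the treated libraries from 1.11 to 1.30%, which overlap. Without Mir101c, the median log2 fold change of the members was 0.13 between KLA and Veh, 0.10 between RGFP966 + KLA and KLA, and 0.24 between RGFP966 + KLA and Veh, beside 0.02, 0.03 and 0.04 over all peaks. With loess offsets the same medians were 0.04, 0.02 and 0.02. Over the members within 10 kb without Mir101c they were 0.02, 0.00 and -0.04, so the excess over all peaks depended on the scaling and the distance. Leaving out Mir101c was chosen after seeing the data. Peaks entered through reproducible lists made from the same libraries. Of all members, 62 (35.8%) were on the RGFP966 + KLA list alone, against 30.0% of all peaks. The shares and medians therefore give no separate evidence of a change.

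The members differed from the whole WT table in position. Of the 173, 85 (49.1%) were intergenic and 62 (35.8%) intronic, and 16 (9.25%) lay at a promoter, against 24.6%, 26.2% and 44.7% of all peaks. Their median distance to the named gene was 13212 bp, beside 1550 bp over all peaks, and 70 lay within 10 kb. At the 100 kb limit, the members just inside were at Mir875 (-96141 bp, with 10, 9, 31, 12, 28 and 25 tags) and Mir6368 (94047 bp, with 5, 9, 8, 4, 8 and 11 tags), and just outside lay Mir7021 (100854 bp, with 5, 4, 12, 5, 11 and 19 tags) and Mir6368 (109887 bp, with 7, 5, 2, 5, 14 and 16 tags). In all, 209 WT peaks were named for a microRNA gene at any distance.

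Membership of the IDR lists was compared with that of all peaks. Of the 173, 48 (27.7%) were on the lists of all 3 conditions, against 28.4% of all peaks, and 62 (35.8%) were on that of RGFP966 + KLA alone, against 30.0%. Fewer, 7 (4.05%), were on those of Veh and RGFP966 + KLA but not KLA, against 9.26%. The 15 members on the KLA list alone had median levels of 2.33 and 4.13 tags per 100000 tags in peaks with Veh, 7.49 and 7.71 with KLA, and 4.94 and 4.12 with RGFP966 + KLA. These levels follow from how the lists were made and give no separate evidence.

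Motif matches were counted in the central 200 bp of each peak, and overlaps between motifs were allowed. Outside Mir101c, 37 of 146 members (25.3%) held an AP-1 match, 17 (11.6%) PU.1, 18 (12.3%) C/EBP and 13 (8.90%) NFkB-p65, against 15.6%, 7.49%, 10.9% and 4.89% of all WT peaks. With promoters left out, the shares were 26.2%, 12.3%, 13.1% and 9.23% in the members and 26.3%, 11.5%, 15.8% and 6.20% over all peaks. Of the 23 called gains, 12 held an AP-1 match, 5 PU.1, 3 C/EBP and 4 NFkB-p65, and of the 5 losses 1, 1, 0 and 1. The 27 Mir101c peaks held 0 matches.

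In the NCoR f/f Veh libraries the microRNA peaks described a baseline, since this table had 1 condition in the data used here. The 532 members held 1.96 and 1.88% of the tags in peaks, or 1.54 and 1.55% without the 34 Mir101c peaks. The highest levels outside Mir101c were at Mir30a (40 and 64 tags), Mir7021 (38 and 65), Mir30d (46 and 50), Mir17 (35 and 58) and Mirlet7a-1 (34 and 52). Of the 498 members outside Mir101c, 438 had levels within a factor of 2 between the libraries.

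This deeper table held more peaks near listed genes. The TLR4-responsive list had 24 peaks at 10 of its 20 genes. The Mir155 locus had 5 of them: 10 and 11 tags at -9610 bp from the start of Mir155hg, 2 and 5 at -4272 bp, 0 and 1 at 287 bp, and 7 and 7 and 2 and 2 in peaks named for Mir155. The lowest was thus the peak at the Mir155hg promoter, which was also near 0 in the WT Veh libraries. Mir146 had 4 peaks, of which that at -10766 bp held 13 and 31 tags and those at 5159 and 5810 bp held 2 and 6 and 3 and 16. Mir21a had 6, from 3 and 6 tags at -9062 bp to 17 and 23 at 5090 bp. The promoter peak of Mir212, encoded beside miR-132, held 11 and 15, and the Mir146b peak 5 and 5.

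The myeloid list had 37 NCoR f/f peaks at 9 of 21 genes. Mir142 had 5, among them a promoter peak with 15 and 25 tags that had no WT counterpart, and Mir23a had 7, with up to 41 and 41 tags. The median tags per peak were 14 and 18 for the myeloid list, 16 and 19.5 for the 8 let-7 peaks, and 7 and 11 for the TLR4-responsive list. The Mirlet7i promoter peak held 22 and 26 tags and the Mir210 promoter peak 22 and 41. By the authors' IDR lists, 13 of the 24 TLR4-responsive peaks were on that of KLA but not of Veh in NWT cells, the name these libraries carry, as were 12 of the 37 myeloid peaks, 192 of all 532 members (36.1%) and 28.7% of all peaks of the table. The KLA libraries behind that list were not analysed here.

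Of the 173 WT members, 164 (94.8%, Wilson interval 90.4 to 97.2%) overlapped an NCoR f/f peak by at least 1 bp, and 163 of the 164 had the same gene name. In the other direction, 165 of the 532 NCoR f/f members (31.0%) overlapped a WT peak. Across the 164 pairs, the levels of Veh in the tables had a Pearson r of 0.877 on the log2 scale, and 0.775 over the 138 pairs outside Mir101c. These are descriptions across peaks, which are not replicates. Of the 8 WT members gained with KLA, 7 had a counterpart, and 6 of these (85.7%) were on the NWT list of KLA but not of Veh, as were 34 of the 138 pairs outside Mir101c (24.6%). The 6 were Mir146, Mir1931, Mir3095, Mir670, Mir7094-2 and Mir7674. For gains with RGFP966 + KLA it was 7 of 15 (46.7%). On the NWT list of Veh but not of KLA were 2 of these 15, against 5.07% of the 138 pairs. Of the losses, 0 of 2 with KLA and 0 of 4 with RGFP966 + KLA were on that list. The pairs were not matched to the called peaks in their Veh level.

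At the called peaks, levels of NCoR f/f Veh could be set beside WT Veh per 100000 tags in peaks, with the genotypes and library dates not separable. The Mir146 peak had 0.54 and 1.18 in NCoR f/f Veh and 0 and 1.65 in WT Veh. The Mir148a peak had 8.59 and 7.26 beside 15.5 and 26.4, and the Mir7041 peak 1.88 and 3.34 beside 8.53 and 10.7. Thus the Mir146 peak was low in both tables. The Mir148a and Mir7041 peaks, the losses called with KLA, were lower in the NCoR f/f table, whose tags are spread over more peaks. These peaks are examples, and the other called peaks are not compared here.

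**Figure D5:**
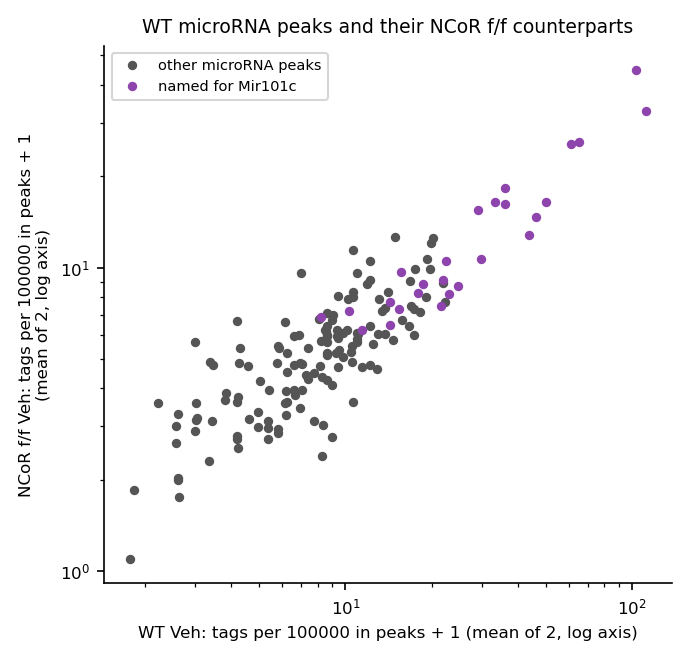
Mean level of each of the 164 WT members with a counterpart in WT Veh (x axis) and in NCoR f/f Veh (y axis), in tags per 100000 tags in peaks plus 1, on log axes, with 1 point per peak and the Mir101c peaks in purple. Levels rise together, with r = 0.877 in all and 0.775 outside Mir101c. Levels are per tags in peaks of each table, and the tables hold different numbers of peaks.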

How the data were processed

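ATAC-seq libraries of mouse BMDMs (8 in all, 2 per condition) were sequenced single-end. The authors used Bowtie2 for alignment to mm10 and HOMER to find peaks, kept reproducible peaks by IDR from the most correlated 2 libraries of a condition, and merged the lists. The choice of the most correlated libraries bears on the spread between replicates. The deposited tables hold raw tag counts per peak, not normalized, with at most 3 tags per position by the file headers, beside peak annotations. Versions of the authors' tools are not given in the sources used here. No sample column was left unused (0). Tags carry no molecular identifiers.

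The members, gene lists and tests were chosen with earlier results of these data known. Counts of all 9698 WT peaks were fitted with edgeR 4.0.16 quasi-likelihood tests (R 4.3.3, limma 3.58.1) over 6 libraries in 3 groups, with tags in peaks as library size and a filter of at least 4 tags in a library, which all peaks passed. The common dispersion was 0.0052. A peak was called at a Benjamini-Hochberg adjusted p under 0.05 and over 2-fold. Standard errors are the log2 fold change over the square root of F. Ratios of summed tags have exact binomial intervals, and shares Wilson intervals, at 95%. The fit was tested on simulated data. DESeq2 1.42.0 was an alternative, as were other scalings, filters, distances, a replicate block, each library left out, and, chosen after seeing the data, the Mir101c peaks left out. Named peaks were those called, those of the fixed lists, those within 2 kb, the 3 with the smallest p in each direction for RGFP966 + KLA against KLA, and the 5 with the highest mean tags per 100000 tags in peaks. Motifs were scanned in the central 200 bp of 9527 of 9698 WT and 24620 of 24867 NCoR f/f peaks on assembled chromosomes of GRCm38.p6. Python 3.11.15, pandas 2.3.3, numpy 2.4.6, scipy 1.17.1 and matplotlib 3.10.9 were used.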

Additional observations from a re-analysis of the deposited data

How the results depend on the processing

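The number of called members depended on the tool, the scaling and single libraries. In place of 10 members with KLA against Veh, 6 were called with all tags as library size, 5 with at least 16 tags and 3 within 10 kb. Fewer than in the main fit were called with any library left out. Every member gained with KLA in the main fit lost its call without Veh library 1. The members called in that fit were all losses, and not all of them were called in the main fit. In place of 22 with RGFP966 + KLA against Veh, 14 were called with loess offsets, 8 within 10 kb and 5 to 22 with a library left out (5 without Veh library 1, 10 without Veh library 2, 11 and 7 without RGFP966 + KLA library 1 and 2). In place of 0 with RGFP966 + KLA against KLA, loess offsets called 5. DESeq2 called 0 members in each comparison under both of its scalings. Over all peaks, 488 calls with KLA became 305 with all tags, 0 and 0 with DESeq2, and 155 to 394 with a library left out (155, 208 and 171 without Veh 1, Veh 2 and KLA 1). The 33 calls of RGFP966 + KLA against KLA became 53 with all tags, 85 with loess, 0 and 0 with DESeq2, 57 with 4 libraries, and 0 to 60 with a library left out (60, 59, 2, 9, 0 and 5 in library order). The 958 against Veh became 633 with loess, 0 and 1 with DESeq2, 623 with at least 16 tags, and 319 to 1002 with a library left out (319, 434, 408 and 385 without Veh 1, Veh 2, RGFP966 + KLA 1 and 2). A fit with a library left out assumes that the lone library of its group varies like the others. The cause of these shifts was not tested.

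Same-numbered libraries did not deviate together (r = 0.016, 0.017 and 0.023), so the numbers were not taken as pairs. With the replicate block, which added the Mir155hg promoter peak with KLA (edgeR adjusted p = 0.0494), 11, 0 and 22 members and 558, 56 and 1036 peaks were called in the 3 comparisons. Gains made 65.6, 69.7 and 69.7% of all calls, 62.0, 88.7 and 82.8% with all tags, 48.8, 24.7 and 41.4% with loess, and 59.5% with TMM for RGFP966 + KLA against KLA. All tags moved the median of all peaks to 0.21 for RGFP966 + KLA against KLA and 0.14 against Veh. With loess, 3 members were gained and 4 lost with KLA, and 6 gained and 8 lost with RGFP966 + KLA against Veh. Of the 32 called single-peak results, 31 kept their call with TMM, 26 with all tags, 15 with loess and 30 with only 4 libraries. Each DESeq2 scaling missed the threshold for all 32. All were kept with the replicate block, with Mir101c left out and without the tag filter. The last repeats the main fit, since all peaks passed the filter, and Mir101c held no call. Many calls were lost with a library left out, as given above. Under these alternatives 0 called results reversed. Signs of peaks not called did turn with loess offsets, as given for Mir155hg, Mir7674 and Mir1931.

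The members' mean share of tags in peaks was 1.97% in Veh, 2.03% in KLA, 1.91% in RGFP966 + KLA and 1.92% in NCoR f/f. Within 10 kb it was 0.693, 0.698, 0.641 and 0.809%, of all tags 0.0337, 0.0322, 0.0347 and 0.0488%, and without Mir101c 1.09, 1.17, 1.22 and 1.55%. Counterparts went from 94.8% to 89.0% at 50% overlap of both peaks. The median NCoR f/f level of 2.85 tags per 100000 was 2.94 to 2.95 with a library left out and 2.69 without Mir101c. The median WT member had 9 to 17 tags per library, which limits the precision of single peaks.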
